A study of Homo sapiens with 2 samples.

Results

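The neuroendocrine differentiation genes were the 9 genes CHGA, CHGB, SYP, ENO2, NCAM1, INSM1, SRRM4, REST and SCG2, taken by their symbols from the 19607 genes in the deposited table. A gene was called measured where the reads of both libraries summed to 10 or more, which held for 7 of the 9 genes and not for NCAM1 and INSM1. RNA sequencing was performed on CWR22rv1 cells, a human prostate cancer cell line grown in medium with foetal bovine serum. There was 1 library of Akt1/2 DKO cells, labelled Akt1/2 knockout, in which both genes had been targeted by CRISPR/Cas9, and 1 library of control cells, labelled wild type. The knockout cells came from single clones selected with puromycin, the labels do not give the clone, and the sources do not say whether the control cells had passed through selection or cloning. With 1 library per condition there is no replicate error, no test was possible, and an effect of the knockout cannot be told apart from a difference of 1 clone or 1 library. Fold changes are ratios of Akt1/2 DKO to control reads after TMM scaling of library size, and their 95% intervals (exact Clopper-Pearson) cover counting error only.

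Neuroendocrine cells of the prostate are secretory epithelial cells that share vesicle proteins with neurons, and prostate tumours can take on this state under hormone therapy. The granins CHGA, CHGB and SCG2 are packed into dense-core granules, SYP spans the membrane of small synaptic-like vesicles, ENO2 is the neuronal enolase of glycolysis, and NCAM1 (CD56) is a surface adhesion protein. INSM1 is a zinc finger transcription factor of neuroendocrine cells. REST is the repressor that silences neuronal genes outside the nervous system through RE1 sites, and SRRM4 is a neural splicing activator that can splice REST into a truncated form lacking most of its repressor function.

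After rounding, the reads summed to 9970825 for control cells and to 10718654 for Akt1/2 DKO cells. The targeted genes were lower in the library labelled as knockout, AKT1 from 2645 to 591 reads (4.96-fold, 95% interval 4.54 to 5.43) and AKT2 from 2362 to 667 reads (3.93-fold, 3.60 to 4.28). Of the 13318 measured genes, 30.9% were 1.5-fold or more apart (27.0% with an interval that also left out no change), and the median log2 fold change was 0.01.

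Of the 7 measured neuroendocrine genes, 3 were 1.5-fold or more apart, beside 30.9% of all measured genes. ENO2 and SRRM4 were higher in Akt1/2 DKO, as were 15.9% of all measured genes, and CHGA was lower, as were 15.0%. The same 3 genes were past 2-fold, beside 17.9% of all measured genes (10% higher and 7.94% lower). CHGB, SYP, REST and SCG2 stayed within 1.5-fold. The median log2 fold change of the 7 genes was 0.26. CHGA passed the filter on reads only through the control library, so its difference was a condition of its being counted. The granule protein CHGA was thus nearly absent in Akt1/2 DKO, while the enolase and the splicing factor stood at 2.05 and 2.06 times their control level.

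RefSeq promoter windows, from 250 bases before to 50 bases after the start of transcription (GRCh38.p14), were found for 5 of the 9 genes (CHGA, SYP, ENO2, SRRM4 and REST, the last with 2 windows). The 250 bases before the start are shown for the 3 genes past 1.5-fold, written along the gene from 5′ to 3′. They lie at chr14:92922900-92923149 (CHGA), chr12:6914330-6914579 (ENO2) and chr12:118981291-118981540 (SRRM4), each on the plus strand, and the RefSeq starts of CHGA, ENO2 and SRRM4 lie inside the gene bodies of the other annotation used here. Capitals mark the cyclic AMP response element TGACGTCA or its part TGACG, and the GC box GGGCGG, on either strand.
CHGA: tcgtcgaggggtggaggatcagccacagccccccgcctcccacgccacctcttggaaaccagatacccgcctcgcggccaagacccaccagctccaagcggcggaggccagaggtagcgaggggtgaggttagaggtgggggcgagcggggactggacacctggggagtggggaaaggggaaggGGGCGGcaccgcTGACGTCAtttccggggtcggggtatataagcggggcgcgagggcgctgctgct
ENO2: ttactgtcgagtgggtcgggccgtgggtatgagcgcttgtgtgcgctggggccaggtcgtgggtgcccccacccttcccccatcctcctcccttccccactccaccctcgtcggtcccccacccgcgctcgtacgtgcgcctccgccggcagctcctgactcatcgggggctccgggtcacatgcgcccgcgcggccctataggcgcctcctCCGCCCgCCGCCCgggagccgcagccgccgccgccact
SRRM4: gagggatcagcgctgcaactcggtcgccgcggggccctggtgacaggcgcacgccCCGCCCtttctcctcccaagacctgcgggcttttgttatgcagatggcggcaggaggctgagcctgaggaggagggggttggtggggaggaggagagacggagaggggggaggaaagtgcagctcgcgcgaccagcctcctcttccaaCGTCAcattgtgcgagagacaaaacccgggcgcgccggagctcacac
The CHGA window held the whole element TGACGTCA, which begins 54 bases before the start and lies behind a GC box that begins 66 bases before it. Of all 35116 RefSeq windows, 1.85% held TGACGTCA, and of the 6 windows of these genes only that of CHGA did. SRRM4 held the shorter TGACG on the opposite strand, as did 24.6% of all windows in either direction. All 6 windows held a GC box, against 45% of all windows. The GC content was 69.3% for CHGA, 75% for ENO2 and 66.7% for SRRM4, where the median of all windows was 58.7%.

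The RE1 sequence that REST binds was searched for on both strands as its left part CAGCACC, its right part GGACAG, and both parts with 2 bases between them, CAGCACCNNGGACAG. The last was in 0 of the 6 windows and in 0.0513% of all windows. The left part was in the SRRM4 window, 41 bases after the start, and in 7.75% of all windows. The right part was in 1 of the 2 REST windows and in 20.5% of all windows. The forkhead core GTAAACA, the core of sites for FOXO proteins, was in 0 of the 6 windows and in 3.42% of all windows. The TATA box TATAAA and the E-box CAGCTG were in 0 of the 6 windows and in 11.5% and 17.9% of all windows. Only these exact letters were searched for, so the similar stretch tatataag in the CHGA window was not counted. These counts describe letters in short windows only.

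**Figure D1:**
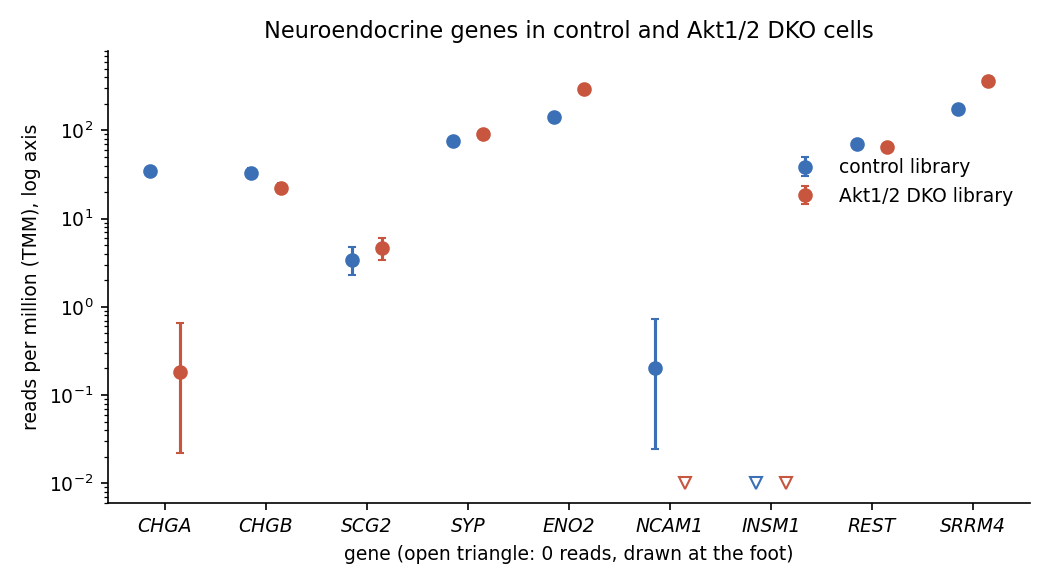
CPM after TMM scaling (log axis) for the 9 neuroendocrine genes in the control library (blue) and the Akt1/2 DKO library (red). Points are single libraries, bars are exact 95% Poisson intervals for counting error, and open triangles at the foot are libraries with 0 reads. CHGA stands at 34.6 and 0.184 CPM, while ENO2 and SRRM4 are higher in Akt1/2 DKO and the other measured genes lie close together.

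Among the granins, CHGA (ENSG00000100604, chromosome 14 from 92923080 to 92935293, plus strand, GENCODE release 29 on GRCh38) had 340 reads in control cells and 2 reads in Akt1/2 DKO cells. On the scale of CPM, which divides reads by the scaled library size, this is 34.6 (95% Poisson interval 31.0 to 38.5) against 0.184 (0.0223 to 0.664), a 188-fold lower ratio with a counting interval from 51.8 to 1563. The 2 reads lie under the floor of 3 reads, so the level in Akt1/2 DKO cells cannot be told from absence at this depth. CHGA was 1 of 25 genes at 3 reads or fewer in Akt1/2 DKO out of 9561 genes at 100 reads or more in control cells (0.261%). Its nearest neighbours of 50 reads or more were close in both libraries, GOLGA5 with 429 and 432 reads 83.1 kb before it and ITPK1 with 1147 and 1205 reads 1.62 kb after it. The median log2 fold change of chromosome 14 was 0.04 over 401 genes. In bulk RNA, fewer cells that express a gene and less RNA in each cell cannot be told apart.

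CHGB (ENSG00000089199, chromosome 20 from 5911430 to 5925361), the other chromogranin, had 326 and 244 reads, or 33.2 and 22.4 CPM. It was 1.48-fold lower in Akt1/2 DKO (1.25 to 1.76), just inside the limit of 1.5-fold, and its interval left out no change. In control cells CHGA stood at 123% of CHGB per length, in FPKM, and in Akt1/2 DKO cells at 0.997%. The counting intervals of CHGA and CHGB overlapped in control cells, and the value in Akt1/2 DKO cells rests on 2 reads of CHGA. SCG2 (ENSG00000171951, chromosome 2 from 223596940 to 223602503), the precursor of the peptide secretoneurin, had 33 and 50 reads. Its fold change of 1.37 had a counting interval from 0.863 to 2.19, and no difference could be resolved with so few reads. The 3 granins of the set thus went 3 ways, with CHGA under the floor, CHGB moderately lower and SCG2 not resolved.

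SYP (ENSG00000102003, chromosome X from 49187804 to 49200259), the vesicle membrane protein synaptophysin, had 752 and 998 reads. It was 1.20-fold higher in Akt1/2 DKO (1.09 to 1.32), within 1.5-fold, with an interval that left out no change. ENO2 (ENSG00000111674, chromosome 12 from 6913745 to 6923698) had 1404 reads in control cells and 3198 in Akt1/2 DKO cells, which is 143 and 294 CPM. The ratio was 2.05-fold higher (1.93 to 2.19). ENO2 shares 499 bases with LRRC23 on the same strand, a gene with 82 and 61 reads. Of the other enolases, ENO1 and ENO3 were within 1.5-fold, and ENO4 had too few reads to be measured (1 and 8). ENO1, the enolase of most tissues, had 14245 and 18884 reads (1.20-fold higher), and ENO3, the muscle enolase, had 58 and 46 reads. Per length, ENO2 stood at 7.24% of ENO1 in control cells and at 12.8% in Akt1/2 DKO cells.

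NCAM1 (ENSG00000149294, chromosome 11) had 2 reads in control cells and 0 in Akt1/2 DKO cells, and INSM1 (ENSG00000173404, chromosome 20) had 0 reads in both. With 3 reads as the limit, a count of 0 allows up to 0.306 CPM in control cells and 0.276 CPM in Akt1/2 DKO cells. No fold is given for either gene. The label of the set was thus borne out in part in control cells, where CHGA, CHGB, SYP, ENO2 and SRRM4 were expressed, and not for the surface marker NCAM1 or the transcription factor INSM1.

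REST (ENSG00000084093, chromosome 4 from 56907876 to 56966678) had 680 reads in control cells and 706 in Akt1/2 DKO cells, which is 69.3 and 64.9 CPM. Its ratio of 1.07-fold lower had a counting interval from 0.960 to 1.19, which holds no change and leaves out a difference of 1.5-fold. REST shares 3309 bases with NOA1 on the opposite strand (496 and 629 reads), and whether strand was used in counting is not given in the sources used here. SRRM4 (ENSG00000139767, chromosome 12 from 118981495 to 119163051) had 1732 reads in control cells and 3959 in Akt1/2 DKO cells, which is 176 and 364 CPM. The ratio was 2.06-fold higher (1.95 to 2.18), so its interval overlaps that of ENO2. Both genes lie on chromosome 12, near opposite ends, and the median log2 fold change of that chromosome was 0.04 over 627 genes. ATN1, 0.765 kb after ENO2, had 3492 and 3657 reads. HSPB8, 15.6 kb after SRRM4, had 63 and 348 reads, and these neighbours were chosen by position alone. The table gives 1 value per gene, so the full-length and the truncated form of REST were not told apart here.

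Levels of different genes were compared per length, in FPKM. In control cells the order was ENO2 (57.8), SYP (35.0), SRRM4 (20.4), CHGA (16.4), REST (14.1), CHGB (13.4), SCG2 (1.28), NCAM1 (0.030) and INSM1, listed at 0. The counting intervals of CHGA (14.7 to 18.3) and REST (13.1 to 15.2) overlapped, as did those of REST and CHGB (12.0 to 14.9). Those of CHGA and CHGB also overlapped, so the order of CHGA, REST and CHGB was not resolved. In Akt1/2 DKO cells the order was ENO2 (126), SRRM4 (43.3), SYP (42.2), REST (12.8), CHGB (9.03), SCG2 (1.80) and CHGA (0.090), with NCAM1 and INSM1 listed at 0. The intervals of SRRM4 (41.9 to 44.6) and SYP (39.7 to 44.9) overlapped. CHGA went from rank 4 to rank 7 of the 9 genes, and among all 19607 genes from percentile 73.4 to percentile 28.9 of FPKM. ENO2 stood at percentile 91.6 and 96.7, and SRRM4 at 77.2 and 88.7.

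**Figure D2:**
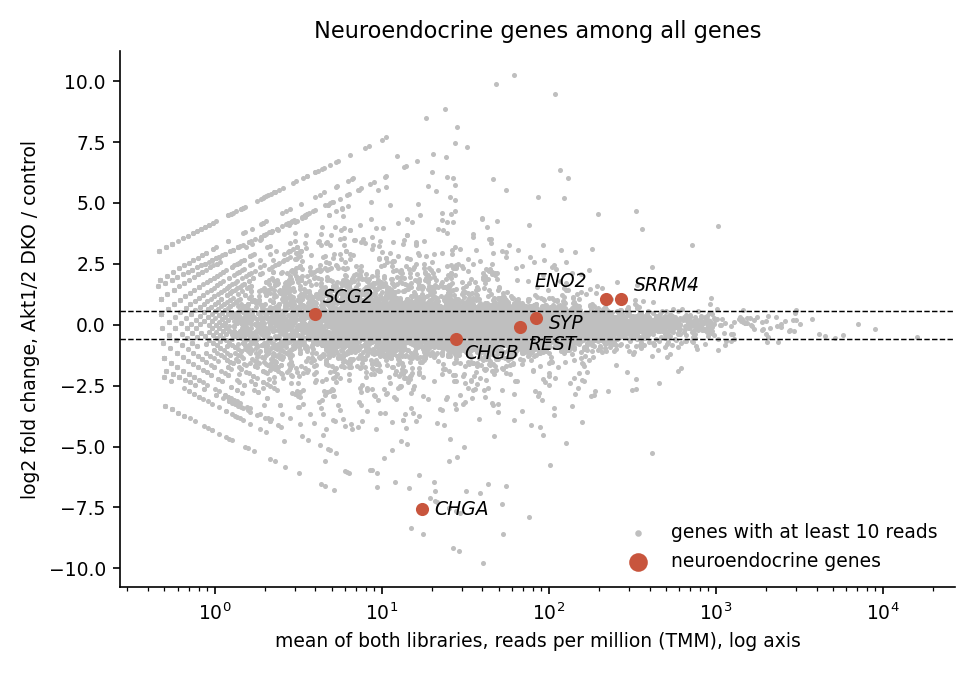
Log2 fold change of Akt1/2 DKO over control against the mean level of both libraries in CPM (log axis) for the 13318 measured genes (grey) and the 7 neuroendocrine genes among them (red). Dashed lines mark 1.5-fold. CHGA lies at -7.56, ENO2 and SRRM4 at 1.04, and CHGB at -0.57 on the lower line.

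Other genes of granules and prohormone processing were described from a fixed list of 18, of which 10 were measured. PAM, the peptide amidating enzyme, had 43 and 125 reads and was 2.62-fold higher in Akt1/2 DKO (1.84 to 3.80). SYT7, a calcium sensor of exocytosis, had 543 and 947 reads (1.57-fold higher). CPE, the carboxypeptidase that trims prohormones, had 1208 and 746 reads (1.80-fold lower). The list thus held 2 genes higher and 1 lower, with 7 within 1.5-fold and a median of -0.11, so that 30% were past 1.5-fold beside 30.9% of all measured genes. The granin relatives VGF, with 8325 and 7116 reads, and SCG3, with 532 and 603, were within 1.5-fold, and these 2 are named after their values were seen. The lowest log2 fold change among the 10 measured genes was -0.84, that of CPE. The other 8 genes of the list had at most 3 reads in either library.

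Among 16 genes of synaptic vesicles and exocytosis, 13 were measured, 4 were higher (30.8%, beside 15.9% of all measured genes), 2 were lower (15.4%, beside 15.0%) and the median was 0.19. SNAP25, a SNARE protein of vesicle fusion, had 65 and 320 reads (4.44-fold higher, 3.39 to 5.89), and RIMS1, a scaffold of the active zone, had 31 and 102 (2.97-fold higher). SYT4, a synaptotagmin of dense-core vesicles, had 3827 and 651 reads (6.52-fold lower, 6.00 to 7.09), and SV2A, a vesicle glycoprotein, had 1567 and 820 (2.12-fold lower).

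The corepressors and turnover factors of REST were all measured, and of these 22 genes 2 were higher and 1 lower by 1.5-fold or more (13.6%, beside 30.9% of all genes). RCOR1, the corepressor CoREST, had 662 and 590 reads (1.24-fold lower), KDM1A, the histone demethylase bound to it, had 1165 and 1273, and CTDSP1, a phosphatase recruited by REST, had 1255 and 1566. These 3 genes were within 1.5-fold. RCOR2, a paralog of RCOR1, had 67 and 160 reads (2.15-fold higher, 1.61 to 2.91). CTDSPL, another phosphatase of the CTDSP1 family, had 1029 and 707 reads (1.61-fold lower). The median of the list was 0.06.

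Of 27 textbook targets of REST, 21 were measured, 6 were higher (28.6%, beside 15.9% of all measured genes), 3 were lower (14.3%, beside 15.0%), and the median was 0.09. L1CAM, a neural adhesion protein, had 50 and 283 reads (5.11-fold higher, 3.77 to 7.04), and SNAP25 was also on this list. CHRNB2, a nicotinic receptor subunit, had 324 and 759 reads (2.11-fold higher, 1.85 to 2.41). BDNF, also counted as higher, had 5 and 17 reads and passed the filter on reads only through the Akt1/2 DKO library. It is named after its values were seen. NEFH, the heavy neurofilament, had 1442 reads in control cells and 91 in Akt1/2 DKO cells (17.6-fold lower, 14.2 to 22.0), and SYT4 was also on this list. The list shares genes with the exocytosis and granule lists, so their counts are not independent.

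**Figure D3:**
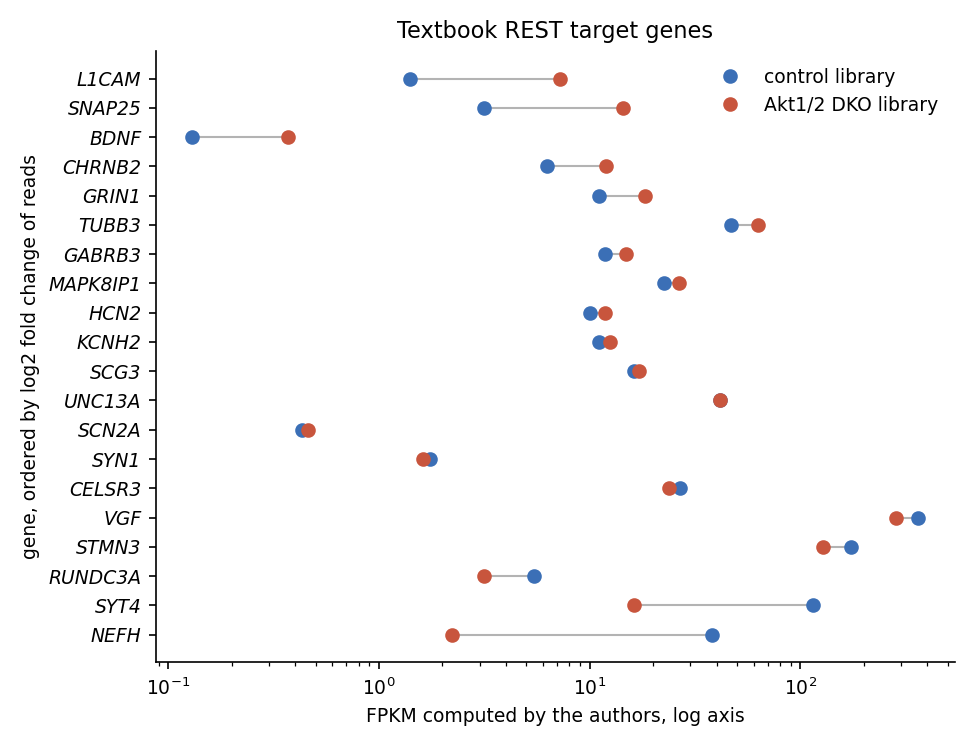
FPKM computed by the authors (log axis) for 20 of the 21 measured textbook targets of REST, in the control library (blue) and the Akt1/2 DKO library (red), ordered by the log2 fold change of reads. L1CAM and SNAP25 lie at the higher end and SYT4 and NEFH at the lower end, and most genes have both points close together.

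Of 24 transcription factors of neuroendocrine cells and Notch genes, 15 were measured, 7 were higher (46.7%, beside 15.9% of all measured genes), 0 were lower (15.0% of all), and the median was 0.50. NEUROD1, FOXA2 and MYCN had 0 reads in both libraries, and SOX2 had 0 and 1. POU3F2 (BRN2), a neural transcription factor, had 1 and 76 reads, and its ratio of 68.5 had a counting interval from 11.9 to 2743. NOTCH3, a Notch receptor, had 35 and 821 reads (21.2-fold higher, 15.1 to 30.6), and MYCL, a MYC family factor, had 25 and 61 (2.20-fold higher). ONECUT2 had 593 and 728 reads, the Notch ligand DLL3 had 24 and 35, and the Notch effector HES1 had 171 and 233, each within 1.5-fold. The other 4 genes counted as higher, NKX2-1, LHX2, DLL1 and MYT1, had at most 12 reads in control cells and at most 27 in Akt1/2 DKO cells, and are named after their values were seen. POU3F2, NKX2-1, LHX2 and DLL1 passed the filter on reads only through the Akt1/2 DKO library. Their difference was thus a condition of their being counted. Where each library had to hold 10 reads, the count was 3, MYT1 among them, and no share of all genes is given for that filter. The counting interval of MYT1 (0.994 to 4.40) held no change.

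SRRM4 was set beside 20 other neural splicing regulators, of which 13 were measured, 3 were higher, 1 was lower (30.8% in all, beside 30.9% of all measured genes), and the median was 0.24. CELF4 and KHDRBS2 passed the filter on reads only through the Akt1/2 DKO library. Where each library had to hold 10 reads, the count was 2 in place of 4, with no share of all genes given for that filter. SRRM3, its closest relative, had 339 and 395 reads (1.05-fold higher, 0.907 to 1.22), PTBP1, the repressor of neural exons, had 5642 and 6023, and PTBP2, its neural form, had 170 and 141, each within 1.5-fold. CELF4, a neuronal RNA-binding protein, had 2 and 267 reads, a ratio of 120 with a counting interval from 33.0 to 999. KHDRBS2, a STAR family RNA-binding protein, had 3 and 119 reads, a ratio of 35.8 (12.0 to 176). ELAVL2, a neuronal Hu protein, had 46 and 229 reads (4.49-fold higher, 3.26 to 6.31). CELF3, a relative of CELF4, had 435 and 116 reads (4.16-fold lower, 3.38 to 5.15). POU3F2, CELF4 and KHDRBS2 were 3 of the 83 genes at 3 reads or fewer in control cells out of 10964 genes at 50 reads or more in Akt1/2 DKO cells (0.757%).

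Of 13 regulators tied to treatment-associated neuroendocrine prostate cancer, 12 were measured, 2 were higher and 0 lower (16.7% in all, beside 30.9% of all measured genes), with a median of 0.27. RB1, a tumour suppressor often lost in that disease, had 366 and 635 reads (1.56-fold higher, 1.37 to 1.78), and SPDEF, an epithelial ETS factor, had 766 and 1283 (1.51-fold higher). Within 1.5-fold were the histone methyltransferase EZH2 (1097 and 1638), the mitotic kinase AURKA (804 and 678) and the retrotransposon-derived PEG10 (17429 and 24964). Among 13 enolase and neural adhesion genes, 10 were measured, 2 were higher and 3 lower (50% in all, beside 30.9%), with a median of 0.01. Of the 2 higher genes, GFRA1 had 0 and 27 reads and passed the filter on reads only through the Akt1/2 DKO library. It is named after its values were seen. Besides L1CAM, which was higher, the adhesion proteins NCAM2 (592 and 405 reads, 1.62-fold) and NRCAM (51 and 28, 2.02-fold) and the polysialyltransferase ST8SIA4, which modifies NCAM1 (136 and 62, 2.43-fold), were lower.

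The cells were checked against markers of other cell types. All 10 luminal prostate markers were expressed in both libraries. Of these, 3 were past 1.5-fold higher (30%, beside 15.9% of all measured genes) and 5 lower (50%, beside 15.0%), with a median of -0.28. KLK3, which encodes PSA, had 184 and 29 reads (7.03-fold lower), and TMPRSS2, KLK2 and HOXB13 were 4.58-, 3.56- and 3.03-fold lower. KLK2 and KLK3 are paralogs that can share reads. The 8 fibroblast markers summed to 106 and 20.3 CPM, of which VIM alone gave 91.4 and 7.72. Of these, 4 were measured, 2 higher and 2 lower, so that all 4 were past 1.5-fold, beside 30.9% of all measured genes. Among them were VIM with 897 and 84 reads (11.8-fold lower), COL3A1 with 74 and 9 (9.12-fold lower) and COL1A1 with 55 and 106 (1.74-fold higher). CAV1, also counted as higher and named after its values were seen, had 6 and 12 reads, and its interval held no change. COL3A1 passed the filter on reads only through the control library, and CAV1 only through the Akt1/2 DKO library. The differences of COL3A1 and CAV1 were thus a condition of their being counted. The 7 immune and endothelial markers summed to 5.70 and 7.44 CPM, and 1 of the 2 measured ones was higher, beside 15.9% of all measured genes. That gene was CD14, named after its values were seen, with 4 and 10 reads. Its counting interval (0.650 to 9.85) held no change, and it passed the filter on reads only through the Akt1/2 DKO library. Luminal and fibroblast markers differed between the same 2 libraries as CHGA, ENO2 and SRRM4, and their part in these differences was not tested.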

How the data were processed

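The authors sequenced RNA of Akt1/2 DKO cells and of control cells, with 1 library for each. The deposited table gives estimated counts of reads per gene, not normalized, and FPKM values that the authors computed for the same libraries. The submitters' processing notes list fastp 0.20.0, TopHat, Cufflinks and edgeR and the build GRCh38.p10, without saying which tool made which value. The deposited tables of the authors' own comparison (fold change, p-value, FDR), of ontology classes and of the correlation between libraries were not used.

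Estimated counts, of which 2173 genes had one that was not whole (tolerance 0.005), were rounded to reads. Genes whose reads summed to 10 or more over both libraries were kept. Library sizes were scaled by TMM (edgeR 4.0.16, R 4.3.3), which put Akt1/2 DKO at 1.11 times control. Ratios with 1 to 3 reads in a library were taken as counted with exact intervals (scipy 1.17.1, Python 3.11.15), in place of the planned floor of 3 reads, which was kept for libraries at 0 and as an alternative. Where both libraries had 3 reads or fewer, no fold was given. Intervals and floors cover counting error only. GENCODE release 29 (GRCh38) gave positions for 19571 of 19607 identifiers, and promoter sequences came from RefSeq (GRCh38.p14). The steps were tested on simulated data.

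The members and the lists were chosen with earlier results of these data known. Named are the 9 genes, AKT1 and AKT2, regulators and markers named whatever their values, and per list up to 5 genes with the largest change (prior count of 1) among those with at least 50 reads and 1.5-fold. Some genes that this rule names are not reported here. The alternatives were total count, upper-quartile and DESeq2 1.42.0 scaling, FPKM with pseudocounts of 0.1 and 1, a prior count of 1, other read filters and a 2-fold limit.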

Additional observations from a re-analysis of the deposited data

How the results depend on the processing

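All 7 measured neuroendocrine genes kept the sign of their log2 fold change and their side of the 1.5-fold limit under the 3 other scalings, both FPKM pseudocounts, the prior count of 1 and the floor of 3 reads for libraries under 3 reads, the last added after seeing the data. The size moved past the counting interval only for CHGA, to -4.00 with FPKM and a pseudocount of 1, and against the floor of 3 reads CHGA was 126-fold lower. AKT1 moved to -2.65 and -2.59 with FPKM and pseudocounts of 0.1 and 1, and the cause was not tested.

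A 2-fold limit, which asks for a larger difference, left 1332 genes higher and 1058 lower, in place of 2120 and 1997. It left 1 granule gene, 1 REST corepressor, 0 treatment-associated regulators, 5 luminal markers and 2 fibroblast markers. At least 10 reads in each library left 3 transcription factors and Notch genes, 2 splicing regulators, 2 fibroblast markers and 0 immune or endothelial markers, and at least 50 reads in the 2 libraries together left 3 and 0 of the first and last of these, as fewer genes were tested. Neither the number tested per list nor the share of all genes is given for these read filters. Whether these counts differ from that share cannot be read from them. FPKM with a pseudocount of 1 left 4 transcription factors and Notch genes. The immune and endothelial count was 0 with FPKM and pseudocounts of 0.1 and 1. The depth limits SCG2, NCAM1 and INSM1. No paired analysis was possible because there was a single library for each condition.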

Other observations

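Among the genes set beside the neuroendocrine genes, NRCAM had different log2 fold changes from reads and from the authors' FPKM. It was at -1.01 by reads and -2.15 by FPKM with a pseudocount of 0.1. The value of 1 read in FPKM, as a log2 ratio between libraries less its median over 10919 genes, was within 0.1 for 74.3% of these genes and for all 6 neuroendocrine genes that had 20 reads or more in both libraries, with REST lowest at -0.09.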
